A study of Drosophila melanogaster with 34 samples.

Results

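The miRNA genes examined here are the 231 hairpin rows of class pre_miRNA in the sense small RNA table other than the muscle gene mir-1 and the clusters mir-959 to mir-964 and mir-972 to mir-979, out of 246 pre_miRNA rows and 46612 sense rows in all. A microRNA is cut from a hairpin precursor, loaded into an Argonaute protein (mainly Argonaute 1 in flies) and guides it to messenger RNAs with a matching seed. PIWI and Aubergine, the proteins named in this study, carry a different class, the piRNAs, which silence transposons in the germ line. Many fly miRNA genes lie in clusters that are transcribed together, and several are known from growth, fat storage, cell death and early development. Each hairpin row holds reads of both arms, and the tables do not separate them.

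The study sequenced small RNA of Drosophila melanogaster sperm, testis and seminal vesicle, the organ that stores mature sperm, and also embryo messenger RNA that is not used here. Sperm came from wild-type males (WT, 3 libraries) and from males labelled piwi (3 libraries) or aub (3 libraries), without a named allele. The wild-type seminal vesicle gave 4 libraries from an immunoprecipitation of PIWI after UV crosslinking (PIWI IP) and 2 of total RNA. Wild-type testis gave 1 usable library each of T1, T2 and T3, which the labels do not define further. The strain, the age of the males and the number of animals per sample are not given in the sources used here, nor is whether replicates came from separate groups of males, so each p-value measures the spread between these libraries, which may be technical. Testis libraries were made in a smaller reaction volume than sperm libraries per the labels' protocols.

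Depth differed by tissue. The pre_miRNA class held 426388 to 3342454 counts in the PIWI IP libraries, 796806 and 1174108 in seminal vesicle total RNA, 25981 to 107991 in the 9 sperm libraries and 83915 to 113259 in testis. It made up 8.35 to 18.3% of sense counts in the PIWI IP, 5.30 and 6.73% in vesicle total RNA, 0.642 to 1.44% in sperm and 1.38 to 3.29% in testis. A count of 0 allows a share of up to 0.0115% of the pre_miRNA counts in the shallowest library (3 counts, counting error only). The table of the seminal vesicle held 229 of the 231 genes and that of sperm and testis 217.

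Marker transcripts were checked first. Late spermatid transcripts (13 of 15 listed genes had a row, and each had a count in every testis library) summed to 1135 to 1654 counts scaled to equal library size (CPM, of sense counts) in testis, against at most 54.6 in sperm and 17.8 to 153 in the seminal vesicle. Accessory gland and ejaculatory duct transcripts (13 genes) summed to 42.0 to 844 CPM in sperm, 205 to 370 in the PIWI IP and at most 38.1 in vesicle total RNA. In testis they summed to 2.30 to 4.36, and 9 to 11 of them were at 0. Muscle transcripts (11 genes) summed to 911 to 2216 CPM in sperm, 629 to 2525 in the vesicle and 169 to 300 in testis. The sperm and vesicle libraries thus held transcripts of gland, duct and muscle beside those of sperm, and their part in the miRNA differences was not tested. In bulk samples such as these, fewer cells of a type and less RNA per cell cannot be told apart.

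All levels below are shares, the percentage of a library's pre_miRNA counts that one hairpin row took. Tissues in which miRNA was a very different part of the counts are thereby compared within the class. Shares are not divided by hairpin length. Fold changes are given on 2 scales. One sets each gene against all small RNA rows (TMM scaling, the main test), and the other sets the library size to the pre_miRNA total (the pre_miRNA scale), which follows the shares. The 231 genes together held 68.2 to 76.3% of the pre_miRNA counts in the seminal vesicle, 81.6 to 95.7% in sperm, and 84.1, 84.4 and 88.5% in testis T1, T2 and T3. Most of the remainder was mir-1, with 23.6 to 31.7% in the vesicle, 3.39 to 18.2% in sperm and 6.22 to 9.64% in testis. Few genes carried most of the signal: 16 to 29 of them made up 90% of these counts in every library.

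The leading miRNA genes differed in part between tissues. In the seminal vesicle mir-8, the fly member of the mir-200 family and a growth regulator of the fat body, led with a median share of 12.4% in the PIWI IP and with 13.5 and 12.6% in total RNA, followed by mir-14, a gene of cell death and fat metabolism (9.76 to 14.6% in the IP, 10.8 and 8.51% in total RNA). In the 9 sperm libraries ban (bantam, a growth gene that blocks cell death) took 6.90 to 11.6%, mir-9a, known from sensory organ formation, 4.04 to 11.6%, and mir-276a 5.15 to 26.2%. There too mir-8 and mir-14 ranked high, with 5.91 to 9.84% and 5.08 to 12.9%. Of these, mir-14 led WT sperm 2 (12.9%) and WT sperm 3 (10.5%). In testis mir-7, known from photoreceptor and germ cell differentiation, took 16.7, 9.45 and 4.81% in T1, T2 and T3, and ban 11.1, 11.4 and 8.73%, while mir-276a led T3 with 10.2%. Across the 44 genes with at least 10 counts in every library, Spearman's rho was 0.943 to 0.990 between PIWI IP libraries and 0.844 to 0.972 between WT sperm libraries, but 0.285 to 0.415 between PIWI IP and testis T1. Within testis it was 0.918 (T1 with T2), 0.942 (T2 with T3) and 0.797 (T1 with T3), and between vesicle total RNA and WT sperm it was 0.694 to 0.830. Between sperm and testis it was lowest for T1 (0.498 to 0.582 with WT sperm) and highest for T3 (0.705 to 0.791). These values are across genes, which are not independent replicates.

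**Figure D1:**
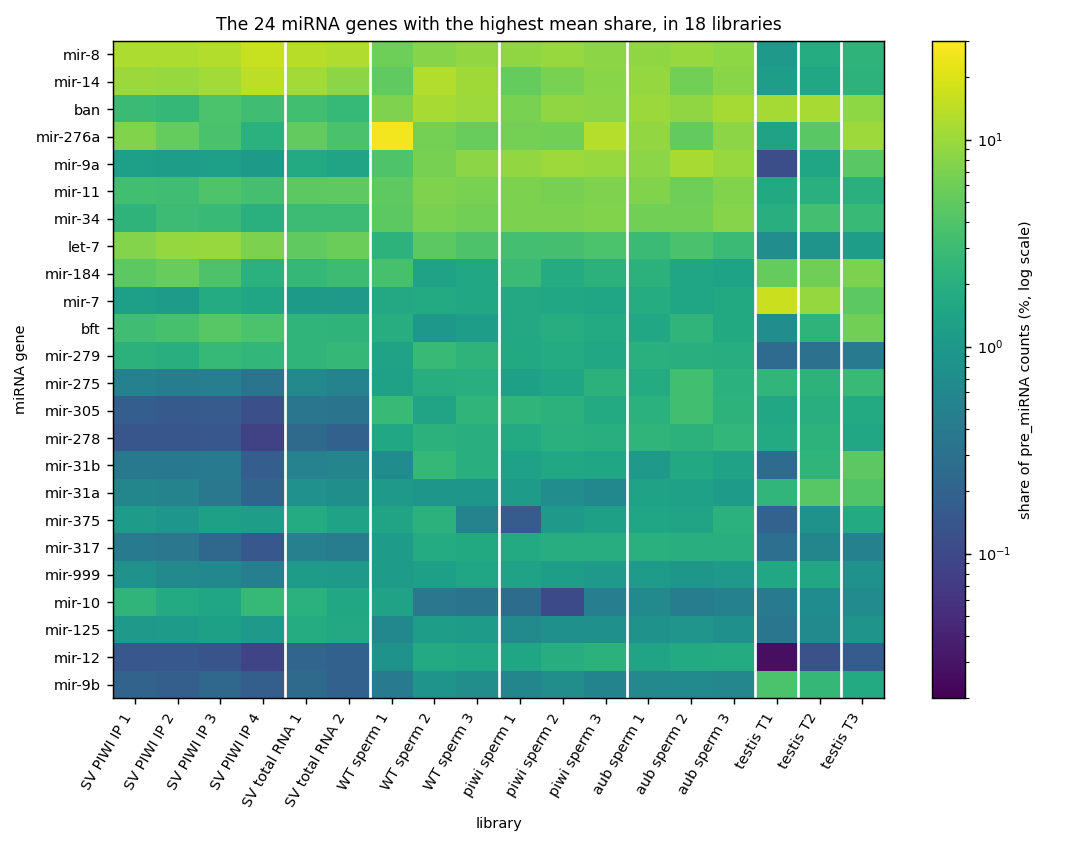
Share of pre_miRNA counts (colour, percent, log scale) of the 24 miRNA genes with the highest mean share (rows) in each of the 18 libraries (columns, groups parted by white lines). The seminal vesicle is led by mir-8 and mir-14, testis T1 by mir-7 at 16.7%, and the first WT sperm library stands apart by mir-276a at 26.2%.

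Testis carried a set of miRNA genes that was scarce in sperm. The cluster mir-310 to mir-313 with mir-991, mir-992 and mir-2498, whose first 4 members share the seed of the mir-92 family, summed to 11.8, 5.60 and 3.96% of pre_miRNA counts in T1, T2 and T3, against 0.0774 to 0.166% in WT sperm. The X-linked cluster around mir-303 (mir-982, mir-983-1, mir-983-2, mir-984, mir-2499) summed to 5.12, 2.72 and 2.08% in testis and to 0.0701 to 0.0808% in WT sperm. Groups did not overlap for either cluster. The 2 clusters also differed between testis libraries in the same order, highest in T1 and lowest in T3.

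Single genes of these clusters showed the same gap. The share of mir-312 was 5.35% in T1, 2.10% in T2 and 1.65% in T3, against 0.0198, 0.0269 and 0.0106% in the 3 WT sperm libraries. It was 8.60 ± 0.75 higher on the log2 scale (log2 fold change ± SE; edgeR quasi-likelihood test, Benjamini-Hochberg adjusted p = 2.1e-05), and 7.16 ± 0.63 higher on the pre_miRNA scale. For mir-984, on chromosome X at 4368646 to 4368735 (RefSeq, Release 6), the shares were 2.36, 1.11 and 1.13% in testis and 0.0304, 0.0346 and 0.0243% in sperm, a log2 fold change of 7.04 ± 0.65 (edgeR adjusted p = 2.13e-05). The genes mir-310, mir-311, mir-982, mir-983-1 and mir-991 lay between 6.11 and 7.62 on the same scale. The nearly identical copies mir-983-1 and mir-983-2 may share reads and are uncertain as single rows.

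Other genes higher in testis were mir-7, the mir-9b, mir-9c and mir-306 hairpins of chromosome arm 2L, and mir-31a. In WT sperm mir-7 took 1.66, 1.74 and 1.55%, below each testis value given above, and its log2 fold change was 3.91 ± 0.62 (2.47 ± 0.41 on the pre_miRNA scale; edgeR adjusted p = 3.48e-04 and 3.43e-08). The share of mir-9c was 3.02, 2.49 and 1.46% in T1, T2 and T3 and 0.305, 0.512 and 0.535% in WT sperm, so the groups did not overlap, with a log2 fold change of 3.87 ± 0.53. The share of mir-306 was 0.775, 0.839 and 0.263% in testis and 0.0278 to 0.0379% in WT sperm (log2 fold change 5.57 ± 0.56). Both mir-92a and mir-92b, which share the mir-310 seed, were higher too (log2 fold changes of 4.59 ± 0.46 and 5.40 ± 0.54). For mir-184, known from the female germ line, the shares were 5.31, 6.20 and 7.10% in testis and 3.61, 1.37 and 1.54% in WT sperm, and the log2 fold change was 2.70 ± 0.76 (edgeR adjusted p = 0.0118). That call was lost without WT sperm 2 (adjusted p = 0.0883).

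Other genes were scarcer in testis than in sperm. The share of mir-12, from an X-linked cluster with mir-283 and mir-304, was 0.0267, 0.123 and 0.169% in T1, T2 and T3 and 0.855, 1.74 and 1.59% in WT sperm. Its log2 fold change was −2.48 ± 0.44 (edgeR adjusted p = 7.29e-04), or −4.08 ± 0.58 on the pre_miRNA scale. For mir-8 the shares were 1.01, 1.84 and 2.30% against 5.91, 7.97 and 9.19%, and for mir-14 they were 1.18, 1.57 and 2.27% against 5.08, 12.9 and 10.5%. Neither group pair overlapped. On the pre_miRNA scale the log2 fold changes were −2.24 ± 0.42 for mir-8 and −2.56 ± 0.41 for mir-14 (edgeR adjusted p = 1.08e-06 and 1.59e-08), while against all small RNA rows their changes, −0.72 ± 0.50 and −0.90 ± 0.48, did not pass (adjusted p = 0.233 and 0.124). Without WT sperm 1 the latter call for mir-14 passed (adjusted p = 0.00199). The share of mir-279, known from the wiring of carbon dioxide sensing neurons, was 0.257, 0.303 and 0.396% in testis and 1.35, 2.73 and 2.33% in WT sperm. Its log2 fold change was −1.16 ± 0.44 (edgeR adjusted p = 0.0401), a call lost without WT sperm 2, without WT sperm 3 or without any one testis library (adjusted p = 0.0562 to 0.171), and −2.77 ± 0.51 on the pre_miRNA scale.

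Over all genes, 54 of the 96 tested were called higher and 7 lower in testis against all small RNA rows, where 30.7% of all 13723 rows tested were called higher and 26.5% lower (57.2% in all). The median log2 fold change was 1.76, against −0.21 over all rows. On the pre_miRNA scale the calls were 27 higher and 27 lower (18% of all rows called higher and 49.5% lower, 67.5% in all), with a median of 0.29 against −1.78 over all rows, and 34 genes were called in the same direction on both scales. Among the gene lists, the mir-310 cluster had 6 of 6 tested genes higher on either scale, and the mir-303 cluster 4 of 5. A gene with few sperm counts could pass the count filter through a testis library alone, so these tallies are descriptions. The 13 genes of the mir-2 seed family, which target cell death genes, had 10 of 11 tested genes higher against all rows but 1 higher and 1 lower on the pre_miRNA scale. The list of growth, fat and stress regulators (ban, mir-8, mir-14, mir-278, mir-276a, mir-276b, mir-184, mir-33, mir-305) had 3 of 9 higher against all rows, and 1 higher and 5 lower on the pre_miRNA scale. In the let-7 complex, whose genes let-7, mir-100 and mir-125 time metamorphosis, 1 of 3 was higher against all rows and 1 lower on the pre_miRNA scale. Each lone testis library was assumed to vary as WT sperm does.

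**Figure D2:**
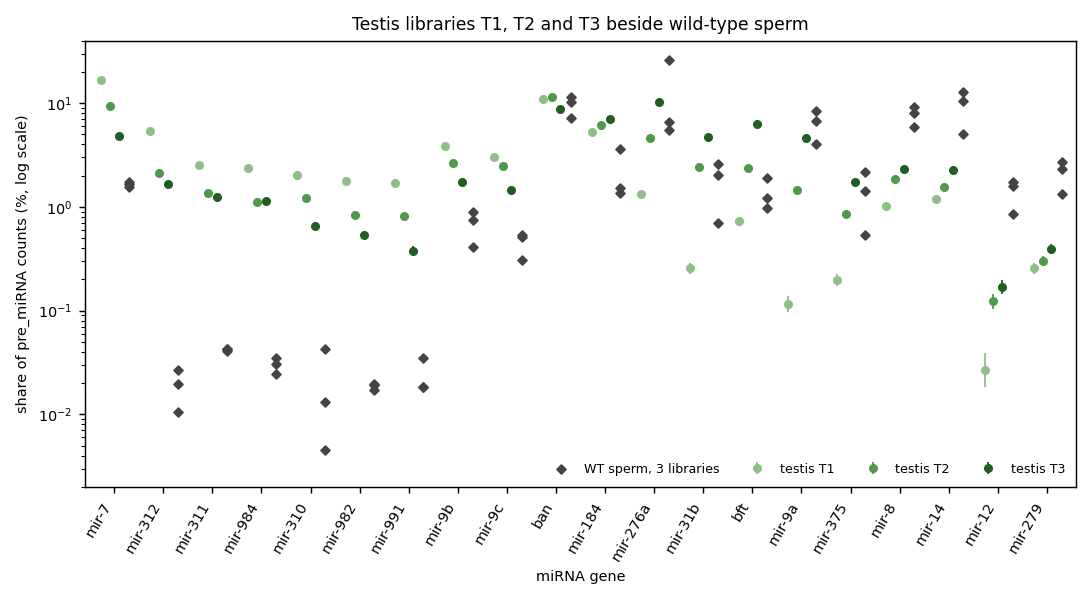
Share of pre_miRNA counts (percent, log scale) of 20 miRNA genes in testis T1, T2 and T3 (green points, bars are Wilson 95% intervals, smaller than the point for most genes) and in the 3 WT sperm libraries (black diamonds). From mir-7 to mir-9c the testis values lie above sperm and are highest in T1, and mir-9a rises from 0.117% in T1 to 4.61% in T3.

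The 3 testis libraries were not alike. Of the 58 genes with a mean testis share of at least 0.05%, 18 fell from T1 through T2 to T3 and 16 rose, in every case with T1 and T3 intervals apart (Wilson 95%, counting error of single libraries, with no replicate check). The other 24 had their highest (20) or lowest (4) value in T2. Replicates of 1 group also differed by more than counting error. Over miRNA rows, the chi-square per degree of freedom was 27.7 to 242.5 between WT sperm libraries. Intervals apart thus do not show that T1 and T3 differ by more than replicates do. The falling genes included mir-7 (3.47-fold between T1 and T3), mir-312 (3.25-fold), mir-9b, mir-9c, mir-92a and mir-92b. The rising genes included mir-9a, on chromosome arm 3L at 19565131 to 19565208, from 0.117% (118 counts, interval 0.0975 to 0.140%) in T1 to 1.46% in T2 and 4.61% (4.47 to 4.75%) in T3, which is 39.5-fold. The share of mir-31b rose from 0.255 to 2.40 and 4.74% (18.6-fold), that of bft (bereft, or mir-263a, which protects sensory bristle cells) from 0.725 to 2.35 and 6.34%, and that of mir-276a from 1.34 to 4.65 and 10.2%. In WT sperm mir-9a took 4.04, 6.75 and 8.35%, nearer to T3 than to T1. The T1 library decided its comparison with sperm: the log2 fold change of −1.21 ± 0.50 (edgeR adjusted p = 0.0545) became 0.40 without T1 (adjusted p = 0.597), and it passed without WT sperm 1, T2 or T3. Scaled by the pre_miRNA total it was −2.79 ± 0.43. In all, 25 of the 58 genes lay above every WT sperm library in each of T1, T2 and T3, and 11 lay below. The 58 were chosen by their testis share, which favours genes high in testis. No such count over all small RNA rows is given here, so this tally is a description of the 58 alone. The X-linked genes together took 7.44 to 8.79% of the counts of the 231 genes in testis, 2.92 to 5.54% in sperm and 1.06 to 1.54% in the vesicle.

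Seminal vesicle total RNA differed from WT sperm in the part of its counts that was miRNA and in the makeup of the class. Preparation and the list of counted features differed with tissue and cannot be told apart from it. Against all small RNA rows, 75 of 94 tested genes were called higher and 0 lower (10.5% of all 9467 rows called higher and 4.95% lower, 15.4% in all; median log2 fold change 3.74, against −0.11 over all rows), with 84 genes and 2859 of all rows at an unadjusted p under 0.05. On the pre_miRNA scale 18 were higher and 31 lower, with a median of −0.36 against −4.40 over all rows, of which 0.739% were called higher and 95.5% lower (96.2% in all). The sign differed between the scales for 54 genes. The comparison shares its WT sperm libraries with those of testis and of the mutants.

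The mir-309 cluster, which is switched on at the start of zygotic transcription and clears maternal messenger RNA in the embryo, was higher in the vesicle on both scales. Its 7 genes with a row summed to 0.524 and 0.376% of pre_miRNA counts in total RNA, 0.0167 to 0.0555% in WT sperm and 0.131 to 0.163% in testis. The share of mir-286 was 0.209 and 0.166% in the vesicle and 0.0211, 0.00385 and 0.00152% in WT sperm (16, 1 and 1 counts). The 6 genes tested were called higher on both scales, but they passed the count filter through the vesicle libraries, where they are high, so this tally was largely fixed by the filter. The log2 fold changes were 8.14 ± 1.16 for mir-286 and 7.74 ± 0.44 for mir-5 (4.25 ± 0.68 and 3.56 ± 0.76 on the pre_miRNA scale). They are given as sizes without p-values, because both genes passed the filter in that way. The call for mir-286 was lost without either vesicle library. Likewise mir-10, from the Hox cluster, took 2.16 and 1.57% in the vesicle and 1.34, 0.362 and 0.334% in WT sperm. Its log2 fold change was 5.27 ± 1.06 (edgeR adjusted p = 0.0175), lost without either vesicle library (adjusted p = 0.12 and 0.0776).

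Other genes were a smaller part of the class in the vesicle although they were higher there against all rows. The share of ban was 3.27 and 2.67% in the vesicle and 7.23, 11.6 and 10.4% in WT sperm, with no overlap. Its log2 fold change was 2.55 ± 0.46 against all rows and −1.71 ± 0.45 on the pre_miRNA scale (edgeR adjusted p = 0.00568 and 1.51e-04). For mir-9a the shares were 1.74 and 1.42% against 4.04, 6.75 and 8.35%, and the log2 fold changes 2.28 ± 0.44 and −2.01 ± 0.47. For mir-278, known from energy balance and the insulin response, the shares were 0.254 and 0.196% against 1.56, 2.20 and 1.96%. Its log2 fold change was 1.15 ± 0.39 (adjusted p = 0.0817, or 0.00162 without WT sperm 1) and −3.08 ± 0.55. The mir-12 cluster summed to 0.344 and 0.443% in the vesicle and 1.60 to 2.51% in WT sperm. The change of mir-12 was 1.55 ± 0.35 against all rows and −2.76 ± 0.56 on the pre_miRNA scale. Without either vesicle library the calls against all rows were lost for ban, mir-9a and mir-12 (adjusted p = 0.0535 to 0.164), and for mir-12 also without WT sperm 2 or WT sperm 3. The genes mir-8 and let-7, both among the most abundant in the vesicle, were higher against all rows (5.01 ± 0.54 and 4.91 ± 0.50) and did not pass on the pre_miRNA scale (edgeR adjusted p = 0.0592 and 0.182). Among the mirtrons, hairpins made by splicing of short introns, mir-1006 took 0.0316 and 0.0341% in the vesicle and had 1 count in all in WT sperm, and mir-1003 took 0.0115 and 0.0132% and had 2. Of 14 mirtrons 6 passed the count filter, these among them through the vesicle libraries, where they are high.

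**Figure D3:**
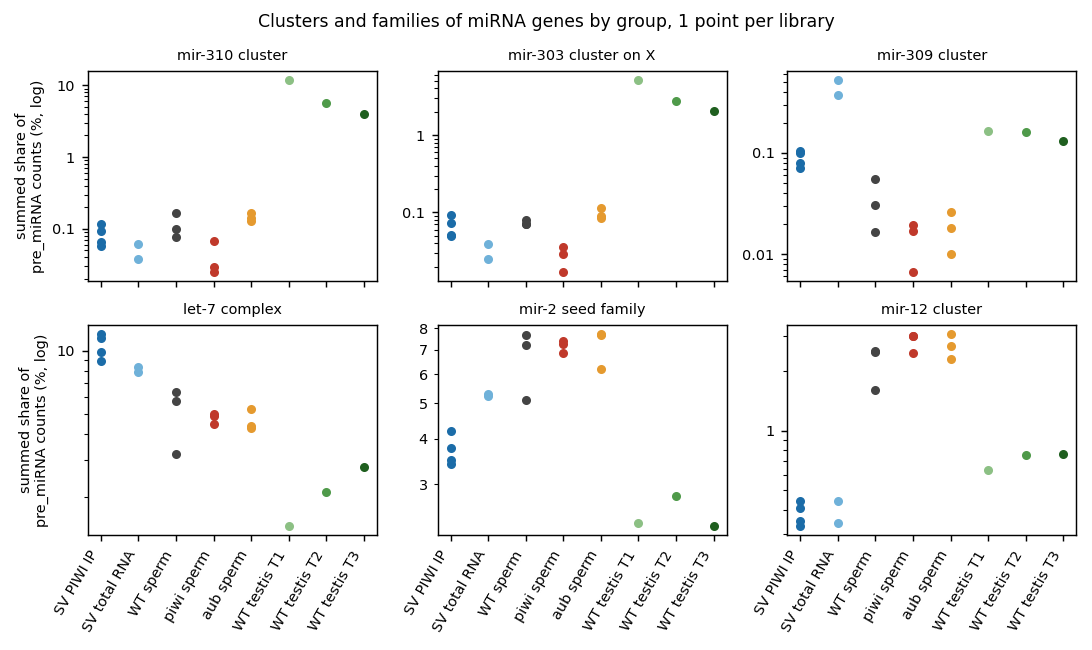
Summed share of pre_miRNA counts (percent, log scale) of 6 clusters or families in each group, with 1 point per library. The mir-310 and mir-303 clusters lie at or above 2.08% in testis and at or below 0.168% in all other libraries, the mir-309 cluster is highest in seminal vesicle total RNA (0.376 and 0.524%), and the mir-12 cluster lies between 1.60 and 3.06% in sperm.

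The PIWI IP held the same leading miRNA genes as the total RNA of the seminal vesicle, and no gene was called higher in it against all small RNA rows. Of 132 genes tested, 54 were called lower and 0 higher (8.41% of all 18666 rows called higher and 9.99% lower, 18.4% in all), and 75 genes and 6003 of all rows had an unadjusted p under 0.05. The median log2 fold change was −1.02, against 0.08 over all rows. These calls depend on the TMM scaling. Without it the pre_miRNA class was a larger part of sense counts in the IP (8.35 to 18.3%) than in total RNA (5.30 and 6.73%). The lower calls are thus relative to the other small RNA rows and do not show less miRNA in the IP. Without total RNA library 1 or 2 the count of 54 became 24 or 31. Within the class, Spearman's rho between IP and total RNA libraries was 0.945 to 0.976 across the 44 genes. On the pre_miRNA scale 10 genes were called higher and 25 lower, where 23.2% of all rows were called higher and 4.51% lower (27.7% in all), with a median of −0.28 against 0.83 over all rows.

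The mir-309 cluster was the group furthest below total RNA. Its 6 tested genes were all lower on both scales, with a median log2 fold change of −3.48, or −2.73 on the pre_miRNA scale. The share of mir-5 was 0.00864, 0.00628, 0.00923 and 0.00680% in the 4 IP libraries and 0.0766 and 0.0413% in total RNA. The groups did not overlap, and mir-5 fell by 3.67 ± 0.26 on the log2 scale (edgeR adjusted p = 1.02e-06) with −2.92 ± 0.31 on the pre_miRNA scale. The share of mir-286, the cluster's gene with the most counts, was 0.0375, 0.0399, 0.0547 and 0.0680% in the IP and 0.209 and 0.166% in total RNA, a change of −2.66 ± 0.25 (adjusted p = 8.29e-06). The near-identical hairpins mir-6-1, mir-6-2 and mir-6-3 changed by −3.58, −3.63 and −3.38, and may share reads. They belong to the mir-2 seed family, in which 9 of 11 tested genes were lower against all rows and 8 on the pre_miRNA scale. Outside the cluster, mir-2b-2 of that family changed by −1.74 ± 0.25. The family member with the most counts was mir-11, a gene in an intron of the cell cycle factor E2f1, with shares of 3.32, 3.23, 3.95 and 3.46% in the IP and 4.73 and 4.87% in total RNA. Its change of −1.21 ± 0.21 passed against all rows (edgeR adjusted p = 0.00112) and not without total RNA 2 (0.0516) or on the pre_miRNA scale (−0.46 ± 0.23, adjusted p = 0.124).

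Several genes of the growth, fat and stress list were also lower in the IP. The share of mir-305, of the mir-275 cluster and known from gut stem cells, was 0.179, 0.159, 0.163 and 0.118% in the IP and 0.350 and 0.337% in total RNA. Its log2 fold change was −1.89 ± 0.24, or −1.15 ± 0.27 on the pre_miRNA scale (edgeR adjusted p = 8.2e-05 and 0.00133). The share of mir-33, which lies in an intron of the lipid regulator SREBP, was 0.0260 to 0.0401% in the IP and 0.0867 and 0.0502% in total RNA, and its change was −1.72 ± 0.27 (−0.99 ± 0.30). For mir-278 the change was −1.53 ± 0.28 (−0.81 ± 0.29), which did not pass without total RNA 1 (adjusted p = 0.0515), and for mir-277, a regulator of branched-chain amino acid breakdown, it was −1.49 ± 0.23 (−0.74 ± 0.26). Like mir-277, the genes mir-133 (change of −3.26 ± 0.29) and mir-306 (−2.51 ± 0.31) are not on that list. In all, 5 of the 9 growth, fat and stress regulators were lower against all rows and 3 on the pre_miRNA scale. As a whole the list was lower by less than the genes tested. Its median log2 fold change was −0.69, against −1.02 over the tested genes. On the pre_miRNA scale it was 0.06, against −0.28.

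Fewer genes were called higher than lower in the IP on the pre_miRNA scale, where 52 of the 132 had a positive log2 fold change. The share of let-7, on chromosome arm 2L at 18472034 to 18472111, was 7.74, 9.40, 9.66 and 7.09% in the IP and 5.08 and 5.76% in total RNA, and that of bft was 3.22, 3.60, 4.47 and 3.76% and 2.39 and 2.31%. The groups did not overlap for either gene. On the pre_miRNA scale their log2 fold changes were 0.64 ± 0.23 and 0.68 ± 0.24 (edgeR adjusted p = 0.0351 and 0.0321), and against all rows they were −0.08 ± 0.26 and −0.06 ± 0.23. In the same complex mir-125 was lower on both scales (−1.39 ± 0.22, and −0.65 ± 0.24 on the pre_miRNA scale, edgeR adjusted p = 0.0387). For mir-8 the shares of 12.1, 12.1, 12.8 and 16.3% in the IP overlapped those of 13.5 and 12.6% in total RNA, and its log2 fold change was −0.72 ± 0.22 against all rows (edgeR adjusted p = 0.0368, lost in 4 of 6 fits without 1 library) but 0.03 ± 0.22 on the pre_miRNA scale. Among the testis clusters, 2 of 4 tested genes of the mir-303 cluster and 1 of 5 of the mir-310 cluster were higher on the pre_miRNA scale and none was called against all rows. Late spermatid transcripts were also higher in the IP (77.3 to 153 CPM) than in total RNA (17.8 and 24.3). So were the gland and duct transcripts given above, and the rise was thus not particular to sperm transcripts. These CPM values are without TMM scaling, and on that measure the miRNA class was higher in the IP too. The part of these transcripts in the cluster values was not tested.

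**Figure D4:**
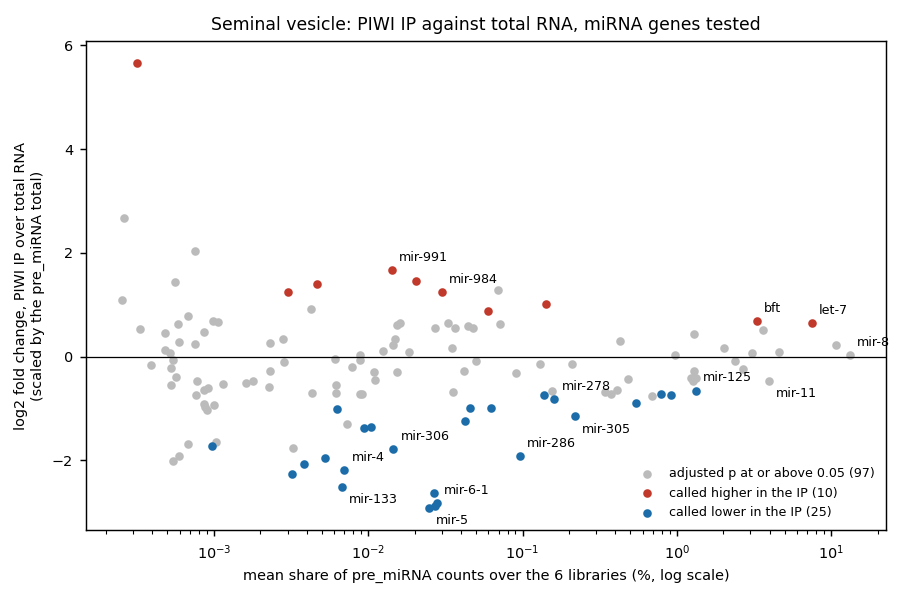
Log2 fold change of 132 miRNA genes between PIWI IP (4 libraries) and total RNA (2 libraries) of the seminal vesicle, scaled by the pre_miRNA total, against the mean share (percent, log scale). Coloured points are called at an adjusted p under 0.05: 10 genes lie above the line and 25 below it, with mir-5, mir-6-1 and its copies near −2.92 to −2.63.

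Few miRNA genes were called between sperm of piwi or aub males and WT sperm. Small changes could be missed. In simulated counts 8% (piwi) and 13% (aub) of rows changed 2-fold were recovered, drawn at random from all rows tested. Recovery among the miRNA genes alone was not measured. Of 72 genes tested, 0 were called in piwi sperm (edgeR; 0.898% of all 10804 rows called) and 0 in aub sperm (1.84% of all rows called), with 12 and 19 at an unadjusted p under 0.05, beside 1235 and 1638 of all rows. DESeq2 called 1 and 4, where it called 1.81% and 3.6% of all rows. Scaled by the pre_miRNA total, edgeR called 2 genes lower in piwi sperm (1.15% of all rows called lower, 1.4% called in all) and 1 lower in aub sperm (0.417% and 2.79%). The CPM values of the groups did not overlap for 6 and 22 of the 72 genes, beside 15.9% and 21.1% of all rows. Between-group rho across the 44 genes (0.814 to 0.974 for WT with piwi, 0.826 to 0.964 for WT with aub) lay beside 0.844 to 0.972 between WT libraries. Each mutant was set against the same 3 WT libraries. Against all rows the median log2 fold change was 0.19 in piwi and −0.64 in aub, beside 0.01 and 0.02 over all rows, and on the pre_miRNA scale it was −0.27 and 0.05, beside −0.33 and 0.60. The class as a whole was 0.642 to 0.748% of sense counts in aub sperm and 0.792 to 1.14% in WT sperm. In piwi sperm it was 0.936 to 1.44%.

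One gene, mir-263b, was called lower than WT on the pre_miRNA scale in both mutants. The share of mir-263b, the paralogue of bft on chromosome arm 3L at 15843406 to 15843495, was 0.188, 0.0269 and 0.161% in WT sperm (142, 7 and 106 counts), 0.0111, 0.0100 and 0.0111% in piwi sperm and 0.0151, 0.00140 and 0.00596% in aub sperm. All 6 mutant libraries lay below the 3 WT libraries. The log2 fold change was −3.55 ± 0.65 in piwi and −4.09 ± 0.69 in aub (edgeR adjusted p = 2.13e-05 and 1.17e-06), and against all rows it was −3.41 ± 0.95 and −4.97 ± 1.04 (adjusted p = 0.197 and 0.0574). Its share was also low in testis (0.0238 to 0.0366%) and in the vesicle (0.0319 to 0.0715%), so that WT sperm 1 and 3 held the highest values of all 18 libraries. Without WT sperm 1 the changes on the pre_miRNA scale were −3.17 and −3.70 (adjusted p = 1.48e-04 and 2.26e-05). Without WT sperm 2 the calls against all rows passed (adjusted p = 0.0304 and 0.00636).

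The testis clusters were low in piwi sperm. The mir-310 cluster summed to 0.0250 to 0.0665% there, 0.0774 to 0.166% in WT and 0.129 to 0.168% in aub sperm, and the mir-303 cluster to 0.0171 to 0.0361%, 0.0701 to 0.0808% and 0.0838 to 0.113%. For both clusters the piwi libraries lay below all other sperm libraries. None of the 4 and 3 tested genes was called, and the median log2 fold changes were −1.14 and −0.85. These rest on few reads: mir-982 had 6, 4 and 4 counts in piwi sperm and 13, 5 and 13 in WT (log2 fold change −1.33 ± 0.60, edgeR adjusted p = 0.415), and mir-310 had 1, 2 and 2 against 10, 11 and 3 (−2.64 ± 0.89, adjusted p = 0.236). On the pre_miRNA scale without WT sperm 1 the change of mir-310 was −3.18 (edgeR adjusted p = 0.0495). The testis clusters mir-959 to mir-964 and mir-972 to mir-979 together did not follow them, with 0.107 to 0.914% in piwi and 0.0489 to 0.396% in WT sperm. In the other direction, the share of mir-9a was 9.20, 10.4 and 9.80% in piwi sperm and 4.04, 6.75 and 8.35% in WT, without overlap (1.12 ± 0.36 against all rows, adjusted p = 0.21, and 0.0011 with no filter on low counts). In aub sperm it was 8.51, 11.6 and 9.80%. For mir-12 the piwi change was 0.88 ± 0.28 (adjusted p = 0.203). In aub sperm mir-14 was −0.75 ± 0.33 and mir-2a-2 −1.50 ± 0.55 against all rows (adjusted p = 0.294 and 0.205).

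The first WT sperm library stood apart from the other 8 sperm libraries. Among the 42 genes with a mean sperm share of at least 0.05% it was above all 8 in 10 and below all 8 in 17, while each of the other libraries took the highest place in 1 to 10 and the lowest in 0 to 7. It held 26.2% of mir-276a, where the others held 5.15 to 13.1%. It held 1.42% of mir-956 (others 0.0211 to 0.216%), 0.760% of mir-276b (0.0461 to 0.154%), and 1.34% of mir-10 (0.102 to 0.667%). It was lowest in mir-9a, mir-8, let-7, mir-12 and mir-31b. The 4 nervous system miRNAs (mir-124, mir-1000, mir-137, mir-219) all had a count there and summed to 0.0383%. In the other sperm libraries they summed to 0 to 0.00926%, and 2 to 4 of them were at 0. Most of the sum in WT sperm 1 was mir-137, with 24 counts, while mir-124, mir-1000 and mir-219 had 1, 3 and 1. The part of these miRNAs in the result was not tested. The fall of mir-956 in piwi sperm on the pre_miRNA scale (−2.59 ± 0.65, edgeR adjusted p = 0.0172) rested on that library, since without it the change was −0.245 (adjusted p = 0.83), and 0.68 against all rows (adjusted p = 0.882). The change of mir-276b in aub sperm was −2.94 ± 1.21 against all rows and −1.74 ± 0.55 on the pre_miRNA scale (adjusted p = 0.319 and 0.0534), and without WT sperm 1 it was −0.0957 on the pre_miRNA scale (adjusted p = 0.988).

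**Figure D5:**
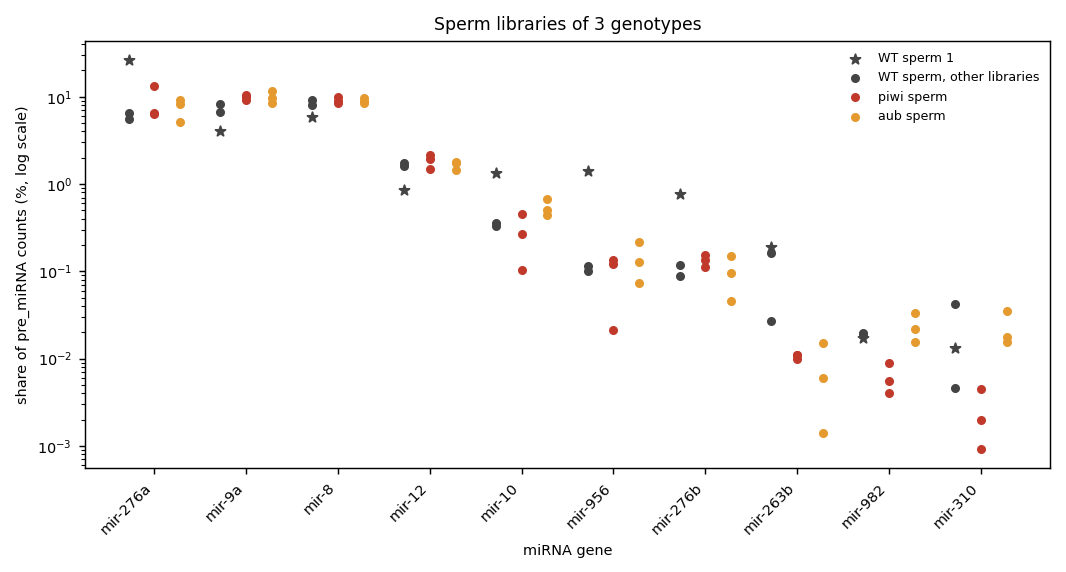
Share of pre_miRNA counts (percent, log scale) of 10 miRNA genes in the 9 sperm libraries, black for WT (star for the first WT library), red for piwi and orange for aub. The star stands above all other points for mir-276a, mir-10, mir-956 and mir-276b, and the red and orange points of mir-263b lie below the 3 WT points.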

How the data were processed

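The authors deposited counts per feature for each strand (46612 sense and 37771 antisense rows), used here unchanged. Per the submitters' processing notes, reads were trimmed (Trim Galore 0.5.0, cutadapt), aligned (Bowtie 1.2.3) and counted (featureCounts in Subread 2.0.0, with SAMtools 1.8) on dm6 or BDGP6. How reads with several positions were counted is not given in the sources used here, so near-identical hairpins are uncertain as single rows. Of 22 small RNA samples 18 had a matching column, and 3 columns per table had no matching sample and stayed out. Embryo data were not analysed here. All 231 genes matched RefSeq (Release 6) by symbol or synonym.

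Counts were tested with edgeR 4.0.16 in R 4.3.3 (filterByExpr, TMM, robust quasi-likelihood F test, Benjamini-Hochberg over all sense and antisense rows, threshold 0.05), with 1 fit for the 3 sperm groups. The SE of a log2 fold change was taken as its size over the root of F. DESeq2 1.42.0, other scalings, no filter and left-out libraries were alternatives. A permutation test of the summed share was planned and is not printed. Wilson 95% intervals and floors cover counting error only, and reads without molecular identifiers are not independent molecules. In simulated counts, 69, 75, 34, 21 and 44% of rows changed 4-fold were recovered for piwi, aub, PIWI IP, testis and vesicle, and 0 to 13% of those changed 2-fold. The changed rows were drawn from all rows tested, and the spread followed its trend with abundance, not that of each gene.

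Genes were named by rule: the 12 with the highest mean share per fit, up to 8 per direction with the largest called change and no overlap, tested members of the lists, and up to 6 whose call depends on the scale. Exceptions, chosen after their values were seen, are genes named for their course over T1 to T3 or for WT sperm 1. The genes and lists were chosen with earlier results of these data known.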

Additional observations from a re-analysis of the deposited data

Results flagged for a closer look

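In the 4 PIWI IP libraries, 21 quantities were checked for 1 library far from the other 3, and 3 were found; chance flags about 1 in 20 groups. The fourth IP library held 16.3% of mir-8, where the others held 12.1 to 12.8%. The same library, which had the fewest pre_miRNA counts, held 0.0823% of mir-278, where the others held 0.141 to 0.147%. The first IP library had 8.35% of its sense counts in the pre_miRNA class, where the others had 16.8 to 18.3%.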

How the results depend on the processing

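Of 833 refitted log2 fold changes of single genes, 420 with another setting and 316 with 1 library left out kept their direction and call. Scaling by the pre_miRNA total changed the calls to 2 (piwi), 1 (aub), 35 (PIWI IP) and 49 (vesicle), and without mir-1 in that total to 1, 3 and 35 for the first 3. In the fits of piwi and aub, DESeq2 called 1 and 4, no filter on low counts gave 6 and 7, DESeq2 size factors gave 1 in aub, the 2 groups alone gave 3 in aub, and the pre_miRNA total without WT sperm 1, chosen after seeing the data, gave 2 and 1. With 1 library left out the calls were 0 to 1 (piwi), 0 to 1 (aub), 24 to 69 (PIWI IP), 47 to 72 (testis) and 54 to 93 (vesicle).

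With the replicate number as a block, 1 gene was called for piwi, 3 for aub, 65 for the PIWI IP and 75 for the vesicle. Deviations of libraries with the same number correlated at 0.161, 0.1 and −0.0693 (piwi with WT) and 0.148, 0.135 and −0.0348 (aub). The first and second mutant libraries correlated best with the WT library of their own number, and the third did not. Whether the numbers pair the samples is therefore not settled, and the main fits used no block.

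The summed share of the 231 genes differed by −4.42 (piwi), 0.814 (aub), 1.50 (PIWI IP), −7.13 (testis) and −20.5 (vesicle) percentage points. As a share of all sense counts the differences were 0.152, −0.234, 7.02, 1.27 and 3.44, and without mir-1 they were −0.242, −1.16, −0.111, −6.53 and 0.0364. With 1 library left out they ranged from −7.84 to −1.07, −0.179 to 2.26, −2.54 to 5.53, −8.57 to −5.69 and −24.5 to −16.5, in the same order.

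Single genes that changed direction on the pre_miRNA scale were, in the PIWI IP, mir-8 (0.0255), let-7 (0.64, or 0.60 without mir-1) and bft (0.68 and 0.64). With no filter let-7 was 0.17 and bft 0.18, and with sense rows alone bft was 0.0086. With 1 library left out let-7 ranged from −0.29 to 0.16 and bft from −0.18 to 0.0901. In the vesicle ban became −1.71 (−1.35 without mir-1, −1.88 without WT sperm 1), mir-9a −2.01 (−1.66 and −2.26), mir-12 −2.76 (−2.40 and −3.02) and mir-278 −3.08 (−2.73 and −3.21). With 1 library left out mir-956 in piwi sperm ranged from −3.50 to 0.68 and mir-9a in testis from −2.14 to 0.40. The cause was not tested. In the sperm comparisons 72 of 217 genes passed the count filter, and genes of the testis clusters had few counts.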
